A study of Mus musculus with 6 samples.

Results

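The enzymes of phase II conjugation were compared between livers of mice heterozygous for a Ptprd allele and livers of wild-type mice. The group holds every protein-coding gene of the count table whose name marks it as a UDP-glucuronosyltransferase (Ugt1a, Ugt2a, Ugt2b or Ugt3a), a sulfotransferase (Sult), or a cytosolic or microsomal glutathione transferase (Gst, Mgst). That is 62 of the 25904 genes in the table, with 19 Ugt, 18 Sult and 25 Gst and Mgst genes. Membership came from the names and not from any expression value, and 4 pseudogene rows with matching names were left out. A filter on low counts kept 53 members for testing, namely 17 Ugt, 15 Sult and 21 Gst and Mgst genes. The 9 members that were not tested reached at most 49 counts in any library.

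Liver polyadenylated RNA was sequenced from 3 Ptprd+/- (Het) and 3 Ptprd+/+ (WT) samples of C57BL/6J mice. Ptprd encodes the receptor-type protein tyrosine phosphatase delta. No treatment is named for either genotype. The labels give neither the kind of altered allele nor the sex, age or diet of the mice or the hour of collection. They do not say whether the samples came from separate mice, so the p-values measure the spread between these samples. Levels are given as CPM, read counts scaled to an equal library size. Fold changes are Het over WT from edgeR's quasi-likelihood test, and SE is the standard error of the log2 fold change.

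Phase II enzymes attach a bulky polar group to drugs, hormones, bilirubin, bile acids and reactive by-products of metabolism, so that these can leave the liver in bile or blood. Ugt enzymes sit in the endoplasmic reticulum (ER) and transfer glucuronic acid from UDP-glucuronate. Sult enzymes work in the cytosol with the sulfate donor PAPS, and Gst enzymes join glutathione to electrophiles. In rodents several of these genes differ between the sexes, since the pattern of growth hormone release sets their expression, and others answer to the receptors AHR, CAR and PXR or to the oxidative stress factor NRF2.

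Total counts lay between 38918379 and 72954187 in Het and between 37924266 and 48526395 in WT. Ptprd itself had 54.1, 78.1 and 63.4 CPM in Het 1, Het 2 and Het 3, against 128, 127 and 132 CPM in WT 1, WT 2 and WT 3, a log2 fold change of -0.99 (SE 0.14) with an edgeR adjusted p of 0.298 and a DESeq2 adjusted p of 2.01e-06, so each library matched its label. All 7 hepatocyte markers were tested and summed to 146364 to 179899 CPM in Het and to 123384 to 148260 CPM in WT. The X-linked Xist was at 273 to 479 CPM over the 6 libraries, while Ddx3y, on the Y chromosome, reached 1 count in a single library. WT 1 lay at one end of the first principal component, which held 32.6% of the variance, and Het 2 lay among the WT libraries. The clock output gene Dbp set Het 2 and Het 3 apart, with 13.5, 129 and 122 CPM in Het 1, Het 2 and Het 3, against 18.9, 29.6 and 14.4 CPM in WT 1, WT 2 and WT 3. The larger differences below are therefore also given without single libraries that move them.

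Most phase II genes differed little between the genotypes, and the larger differences sat in a few genes that were lower in Het. Among these were Ugt1a5, a run of Sult2a genes, Sult3a1, Sult3a2, Sult1d1, Gstt3 and Gstm3. By edgeR 0 of the 53 tested members passed an adjusted p of 0.05, as did 0% of all 14606 tested genes. At an unadjusted p under 0.05 stood 15 members, 14 of them lower and 1 higher in Het, against 7.15% of all tested genes (3.77% lower and 3.39% higher). Limma-voom also called 0 genes, with 7.33% of all tested genes at an unadjusted p under 0.05 (4.01% lower and 3.33% higher). DESeq2 called 2 members, Ugt1a5 and Sult3a2, both lower in Het, where it called 0.452% of all tested genes (0.219% lower and 0.233% higher). With no filter on low counts edgeR called 8 of the 62 members, all lower in Het, against 0.282% of all 25904 genes (0.178% lower and 0.104% higher). Those 8 were Ugt1a5, Sult1d1, Sult2a1, Sult2a2, Sult2a3, Sult2a5, Sult3a1 and Sult3a2.

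The median log2 fold change was -0.17 over the 53 members, with 40 lower and 13 higher, beside a median of -0.0039 over all tested genes. A log2 fold change within 0.3 of 0 was seen in 34 of the 53 members, a lower share than the 11523 of all 14606 tested genes. The genotypes did not overlap in 8 members, 2 with all Het libraries above WT and 6 below, where 13.9% of all tested genes had no overlap (7.15% above and 6.72% below). Summed over all 62 members, phase II transcripts reached 11696, 11456 and 11444 CPM in Het 1, Het 2 and Het 3, against 13501, 11737 and 12493 CPM in WT 1, WT 2 and WT 3. All 3 sums in Het lay below all 3 in WT, with means of 11532 ± 143 CPM in Het and 12577 ± 885 CPM in WT (SD, n = 3 each). Without Sult2a1 to Sult2a6, described below, Het 1 stood at 11688 CPM and WT 2 at 11668 CPM, so the genotypes overlapped. The gap between the full sums was narrow, with Het 1 at 11696 CPM and WT 2 at 11737 CPM. Without this block the means were 11522 ± 144 CPM in Het and 12424 ± 728 CPM in WT (SD, n = 3 each). The Het mean thus stayed the lower one without Sult2a1 to Sult2a6. Whether fewer hepatocytes or less RNA per hepatocyte lay behind a lower level cannot be told apart in bulk tissue.

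**Figure D1:**
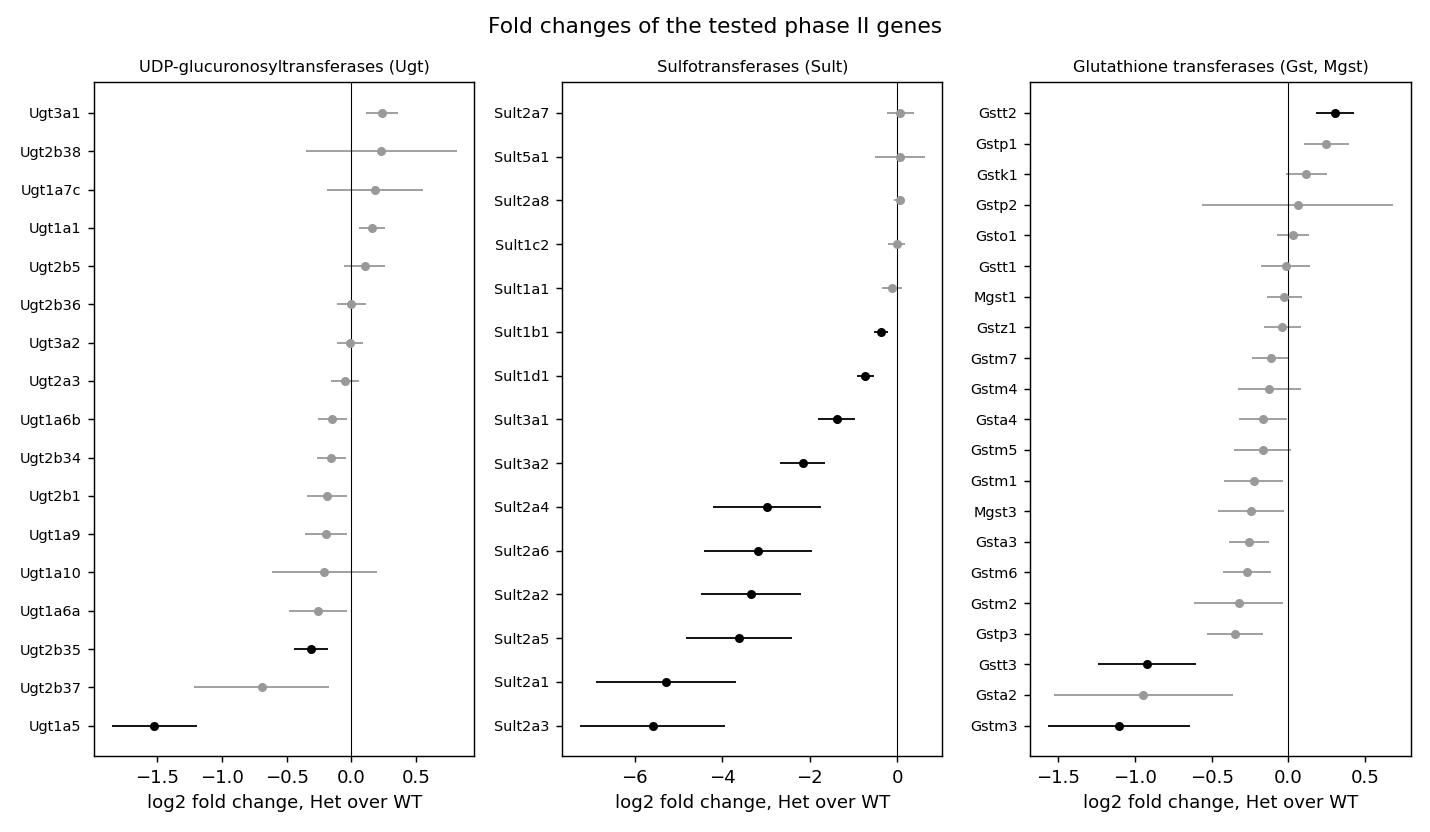
Log2 fold changes (Het over WT) of the 53 tested members in 3 panels by family, each point with its SE as a bar. Black points had an unadjusted edgeR p under 0.05 and grey points did not, and the horizontal scales differ between panels. The Sult2a1 to Sult2a6 points lie farthest from 0, between -5.59 and -2.98, while most Ugt and Gst points lie close to 0.

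The Ugt1a genes are 9 members that overlap one another on chromosome 1 (mm10, 88055388 to 88220002). Each has its own promoter and first exon, and all are spliced to the same later exons. In the GENCODE M21 annotation between 39.4% and 49.7% of a member's exonic bases belong to no other gene. How the authors' counting treated reads in the shared exons is not given in the sources used here, so the levels below rest on the first exons wherever such reads were dropped.

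Ugt1a5 stood apart from the other Ugt1a genes. It had 33.6, 46.2 and 38.8 CPM in Het 1, Het 2 and Het 3, against 172, 61.2 and 109 CPM in WT 1, WT 2 and WT 3. The highest Het library stayed below the lowest WT library, and the WT libraries spread more widely than the Het ones. The means were 39.6 ± 6.33 CPM in Het and 114 ± 55.5 CPM in WT (SD, n = 3 each), which is 2.88-fold lower, a log2 fold change of -1.52 (SE 0.33). The edgeR adjusted p was 0.531 and the DESeq2 adjusted p 0.000291. Leaving out 1 library at a time gave log2 fold changes between -1.82 and -1.10, the smallest without WT 1.

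Ugt1a1, the enzyme that conjugates bilirubin, had the opposite order, with 338, 325 and 329 CPM in Het 1, Het 2 and Het 3, against 267, 314 and 307 CPM in WT 1, WT 2 and WT 3. The lowest Het library was above the highest WT library, yet the means were only 1.12-fold apart (log2 fold change 0.16, SE 0.10, edgeR adjusted p 0.747, and 0.09 on the log2 scale without WT 1). Per kilobase of exon that no other gene shares, Ugt1a1 stood at 362 in Het and 324 in WT (mean CPM per kb), and Ugt1a5 at 44.4 in Het and 128 in WT. Ugt1a5 was thus the second most abundant Ugt1a transcript on this scale in WT and close to Ugt1a9 (40.9 in Het and 46.9 in WT) and Ugt1a6b (38.5 in Het and 42.6 in WT) in Het.

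The remaining Ugt1a genes overlapped between the genotypes. Ugt1a6a and Ugt1a6b, which act on small phenols, had log2 fold changes of -0.26 (SE 0.22) and -0.15 (SE 0.11). Ugt1a9, an enzyme of bulkier phenols, had -0.20 (SE 0.17). Ugt1a10 and Ugt1a7c were under 1 CPM in every library, with log2 fold changes of -0.21 (SE 0.40) and 0.18 (SE 0.37), and Ugt1a2 and Ugt1a8 were not tested, with at most 5 counts and 1 count in any library. Summed over the 9 genes the level was 451, 453 and 455 CPM in Het 1, Het 2 and Het 3, against 544, 471 and 497 CPM in WT 1, WT 2 and WT 3, with all Het sums below all WT sums. Without Ugt1a5 the sum was 417, 407 and 416 CPM in Het 1, Het 2 and Het 3, against 372, 409 and 389 CPM in WT 1, WT 2 and WT 3, where the genotypes overlapped and the Het mean was the higher one, so the separation of the full sums rested on Ugt1a5.

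**Figure D2:**
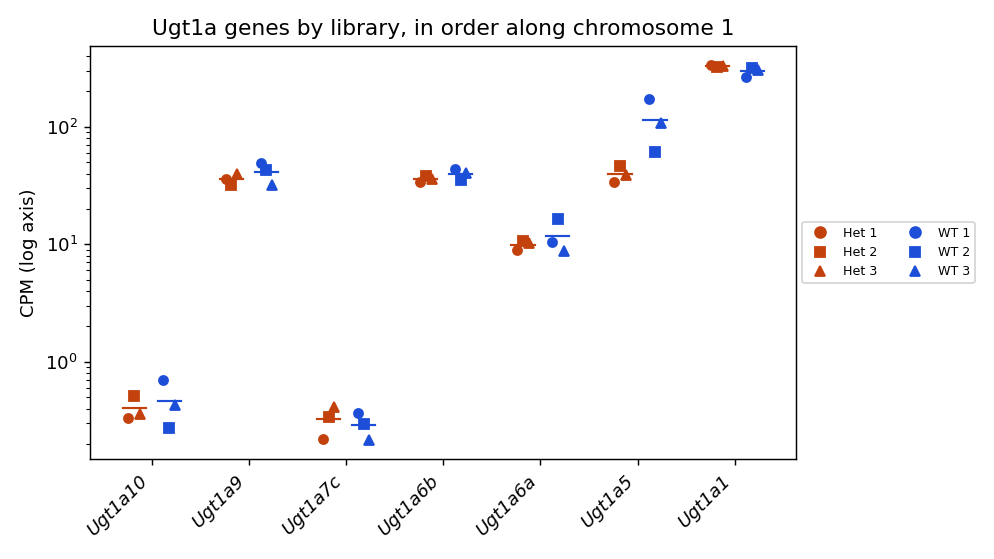
Level of the 7 tested Ugt1a genes in each library in CPM on a log axis, ordered along chromosome 1, with Het left of WT for each gene, 1 symbol per library and a line at the mean. Ugt1a5 has Het libraries at 33.6 to 46.2 CPM and WT libraries at 61.2 to 172 CPM, while its neighbours lie at like heights in both genotypes.

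Because each Ugt1a gene starts from its own promoter, the stretches before Ugt1a5, Ugt1a1 and Ugt1a9 are shown, from 120 bases before to 10 bases after the RefSeq start (GRCm38.p6, the mm10 sequence). Capitals mark GCGTG, searched on both strands (CACGC on the other), which is the core of the site read by AHR.
Ugt1a5 (chr1:88165892-88166021, plus strand): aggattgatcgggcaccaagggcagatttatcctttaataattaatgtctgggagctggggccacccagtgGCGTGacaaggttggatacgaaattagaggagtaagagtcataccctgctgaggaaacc
Ugt1a1 (chr1:88211839-88211968, plus strand): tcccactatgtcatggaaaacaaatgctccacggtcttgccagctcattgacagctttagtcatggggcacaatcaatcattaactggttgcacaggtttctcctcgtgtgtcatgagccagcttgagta
Ugt1a9 (chr1:88070659-88070788, plus strand): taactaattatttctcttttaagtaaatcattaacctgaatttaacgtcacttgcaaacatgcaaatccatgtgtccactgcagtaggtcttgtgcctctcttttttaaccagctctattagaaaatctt
Of the 3 stretches Ugt1a5 alone holds these letters. In the 300-base RefSeq windows they were in 14 of the 66 windows of the 54 members with an entry, beside 32.4% of all 32851 windows. The antioxidant element core TGACNNNGC was in 4, beside 12.4%, all of them of Gst or Mgst genes, and TTCNNNGAA, the STAT core, in 6, beside 8.3%. These are matches of letters and not measured binding.

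The 7 Ugt2b genes and Ugt2a3, on chromosome 5, conjugate steroids, bile acids and drugs, and supplied most of the Ugt transcripts. Summed Ugt2b levels were 1821, 1904 and 2232 CPM in Het 1, Het 2 and Het 3, against 1940.0, 2113 and 2200.4 CPM in WT 1, WT 2 and WT 3. These ranges overlapped. Ugt2b34 had 488, 570.1 and 575 CPM in Het 1, Het 2 and Het 3, against 581, 633 and 604 CPM in WT 1, WT 2 and WT 3, with all Het libraries below WT but only 1.11-fold apart. Ugt2b35 had 76.3, 92.2 and 106 CPM in Het, against 105, 121 and 114 CPM in WT, a log2 fold change of -0.31 (SE 0.13) with an edgeR adjusted p of 0.694, and its highest Het library reached just above the lowest WT library. Without Het 1 the log2 fold change was -0.20. The abundant Ugt2b36 was flat, with 542 ± 59.2 CPM in Het and 543 ± 8.87 CPM in WT (SD, n = 3 each).

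Ugt2b5 averaged 482 ± 93.4 CPM in Het and 449 ± 51.4 CPM in WT (SD, n = 3 each), a log2 fold change of 0.10 that turned to -0.066 without Het 3. Of its 50-base stretches 41.7% also occur in other genes, mainly Ugt2b38 and Ugt2b37, so reads can be split among these 3. Ugt2b37 had 2.96, 2.6 and 5.01 CPM in Het, against 1.69, 8.38 and 7.17 CPM in WT, with WT 1 the lowest of all libraries (log2 fold change -0.69, SE 0.52). That value was -1.13 without WT 1, -0.31 without WT 2 and -1.05 without Het 3. Ugt2b1 and Ugt2a3 had log2 fold changes of -0.19 (SE 0.15) and -0.049 (SE 0.11), and Ugt2b38 had 0.329, 0.468 and 1.52 CPM in Het, against 0.369, 0.938 and 0.75 CPM in WT. The log2 fold change of Ugt2b38, 0.23, turned to -0.77 without Het 3 and to -0.07 without WT 1. The Ugt3a enzymes, whose human counterparts use sugars other than glucuronic acid, differed little. Ugt3a1 had 66.9, 75.6 and 86.3 CPM in Het, against 65.5, 71.1 and 57.6 CPM in WT, a log2 fold change of 0.24 (SE 0.13), and Ugt3a2 had -0.013 (SE 0.10).

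Over the 17 tested Ugt genes the median log2 fold change was -0.15, with 12 lower and 5 higher. Only Ugt1a5 and Ugt2b35 had an unadjusted p under 0.05, both lower, beside 3.77% of all tested genes lower at that p. Within 0.3 of 0 lay 14 of the 17. Without WT 2 the median was -0.0077 and without WT 3 it was -0.041.

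Sulfotransferases held the widest differences. Of 15 tested Sult genes 12 were lower in Het, and the median log2 fold change was -1.38. At an unadjusted p under 0.05 stood 10 of the 15, all lower, beside 3.77% of all tested genes lower at that p. Of these 10, 6 were the clustered Sult2a1 to Sult2a6 and 4 were among the other 9 tested genes. Without Sult2a1 to Sult2a6 the median over the other 9 was -0.12. The 6 clustered genes therefore set the family's median, and they are described first.

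Sult2a genes sulfate hydroxysteroids and bile acids, and in mouse liver Sult2a1 and its close relatives are known as female-predominant. The 8 members lie together on chromosome 7 (mm10, 13623967 to 14494230). Sult2a1 had 0.713, 4.28 and 0.215 CPM in Het 1, Het 2 and Het 3, against 169, 26.7 and 1.53 CPM in WT 1, WT 2 and WT 3. WT 1 alone held more than 6 times the level of WT 2, and Het 2 lay above WT 3, so the genotypes overlapped. In the other 5 genes of the block, too, WT 1 was the highest library and WT 2 the next, and Het 2 lay above WT 3. Sult2a3 had 0.219, 0.468 and 0.0671 CPM in Het, against 31.9, 1.88 and 0.214 CPM in WT, and Sult2a5 had 0.192, 2.13 and 0.107 CPM in Het, against 21.6, 6.37 and 1.07 CPM in WT. Sult2a2 had 6.8, 10 and 0.859 CPM in Het, against 142, 27.2 and 6.99 CPM in WT.

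Differences in the block spanned Sult2a3 with a log2 fold change of -5.59 (SE 1.66) to Sult2a4 with a log2 fold change of -2.98 (SE 1.23). Sult2a1 had -5.28 (SE 1.59), Sult2a5 -3.62, Sult2a2 -3.34 and Sult2a6 -3.18. Their edgeR adjusted p values lay between 0.671 and 0.694, and their DESeq2 adjusted p values between 0.131 and 0.803. Without WT 1 the log2 fold changes shrank to -3.05 for Sult2a1, -2.16 for Sult2a3, -2.24 for Sult2a5, -1.56 for Sult2a2, -2.09 for Sult2a4 and -2.24 for Sult2a6. Without Het 2 they were -7.33, -6.50, -6.10, -4.00, -6.63 and -7.25 in the same order. The size of the difference thus rested on WT 1 and Het 2, while its direction held without either.

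Summed over Sult2a1 to Sult2a6 the level was 7.95, 19.6 and 1.33 CPM in Het 1, Het 2 and Het 3, against 379.5, 69.3 and 10.9 CPM in WT 1, WT 2 and WT 3. Reads can be split among these genes, since 62.1% of the 50-base stretches of Sult2a2, 34.5% of Sult2a5, 33.2% of Sult2a1 and 25.5% of Sult2a4 recur in other genes, mainly in each other. For Sult2a3 and Sult2a6 the shares were 8.4% and 6.6%. Sult2a8 and Sult2a7, at the end of the same cluster, did not share this order of libraries. Sult2a8, a bile acid sulfotransferase and the most abundant of the 8 in every library, had 721, 662 and 728 CPM in Het 1, Het 2 and Het 3, against 573, 711 and 750.1 CPM in WT 1, WT 2 and WT 3 (log2 fold change 0.053, SE 0.13). Sult2a7 had 59.9, 39.4 and 45.7 CPM in Het, against 50.4, 61.9 and 25.4 CPM in WT (log2 fold change 0.073, SE 0.30), and no order by genotype was seen in either.

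Other genes known as female-predominant in mouse liver were mostly lower in Het as well. Of 22 such genes outside the conjugation families, all tested, 20 were lower in Het, beside 7413 of all 14606 tested genes. Lower at an unadjusted p under 0.05 were 7 of the 22, beside 3.77% of all tested genes. Higher at that p was 1 of the 22 genes. Their level per library, taken as the median over the genes of the centred log2 CPM, was -0.30, -0.051 and -0.17 in Het 1, Het 2 and Het 3, against 0.32, 0.21 and 0.069 in WT 1, WT 2 and WT 3. On this scale no Het library reached a WT library. Their summed level, which abundant genes dominate, overlapped at 3958 to 5164 CPM in Het and 4363 to 5207 CPM in WT. The lowest p belonged to Cyp3a16 with 1.76, 3.7 and 1.72 CPM in Het, against 50.5, 29.1 and 7.36 CPM in WT, and to Cyp3a41a with 3.32, 7.43 and 2.68 CPM in Het, against 17.2, 12.7 and 11.1 CPM in WT. Of 13 tested male-predominant genes 12 were higher in Het, beside 7193 of all 14606 tested genes, and the median was 0.85 over the 13. Higher at an unadjusted p under 0.05 were 3 of the 13, beside 3.39% of all tested genes. The smallest p belonged to Cyp2u1 (log2 fold change 0.92) and Mup20 (0.85). The level of the male-predominant genes was 0.63, 0.11 and 0.61 in Het 1, Het 2 and Het 3, against -1.11, -0.11 and 0.47 in WT 1, WT 2 and WT 3. WT 1 and Het 1 were the extremes on both scales, while in the Sult2a sum WT 1 was the highest and Het 3 the lowest. The part of this axis in the Sult2a values was not tested.

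Stretches around the start of 4 of the 6 genes are in RefSeq, and they are shown because these genes varied together. Each stretch begins 60 bases before the longest run of letters common to all 4, which is 15 bases long. They therefore begin at unlike distances, 111, 167, 88 and 131 bases before the RefSeq starts of Sult2a3, Sult2a4, Sult2a5 and Sult2a6. The stretch of Sult2a5 runs past its start. Capitals mark bases that differ from Sult2a3, or have no partner in it, when the 2 stretches are aligned.
Sult2a3 (chr7:14123050-14123159, minus strand): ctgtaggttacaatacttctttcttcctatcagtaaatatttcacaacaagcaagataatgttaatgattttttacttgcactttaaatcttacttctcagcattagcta
Sult2a4 (chr7:13989646-13989755, minus strand): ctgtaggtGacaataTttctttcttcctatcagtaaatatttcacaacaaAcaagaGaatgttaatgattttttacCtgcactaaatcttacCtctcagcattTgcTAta
Sult2a5 (chr7:13623879-13623988, plus strand): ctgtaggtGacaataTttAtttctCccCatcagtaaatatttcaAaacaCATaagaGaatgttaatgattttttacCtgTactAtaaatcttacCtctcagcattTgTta
Sult2a6 (chr7:14254892-14255001, minus strand): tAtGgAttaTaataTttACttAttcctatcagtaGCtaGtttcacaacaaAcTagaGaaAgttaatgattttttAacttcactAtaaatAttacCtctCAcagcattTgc
Aligned over these 110 bases, the first 3 share between 85.5% and 90.2% of positions with one another, and Sult2a6 shares 76.1% to 78.3% with them.

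**Figure D3:**
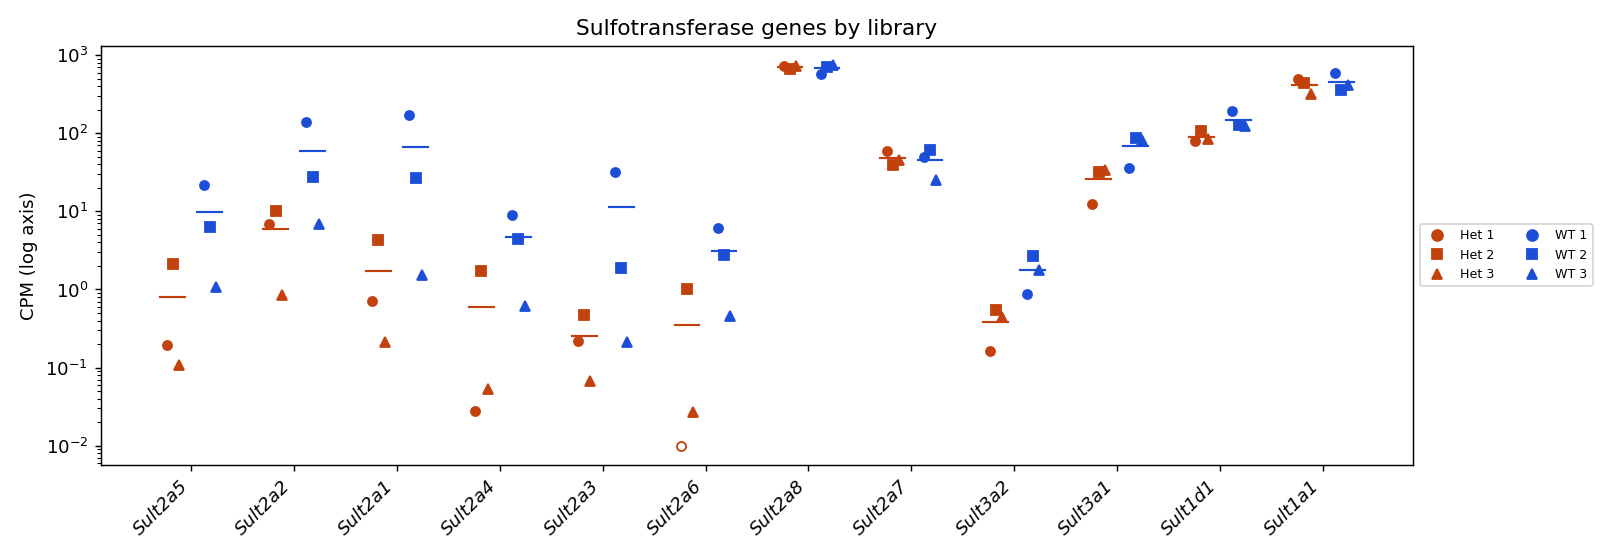
Level of 12 Sult genes in each library in CPM on a log axis, with Het left of WT, 1 symbol per library and a line at the mean. The open symbol at the foot of the axis is Sult2a6 in Het 1, which had a count of 0. Sult2a1 to Sult2a6 spread more widely within each genotype than the other genes shown, while Sult2a8 and Sult1a1 stay level and Sult3a1, Sult3a2 and Sult1d1 separate the genotypes.

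Sult3a1, which sulfates amines in the mouse, and its neighbour Sult3a2 on chromosome 10 separated the genotypes. Sult3a1 had 12.6, 32.2 and 34 CPM in Het 1, Het 2 and Het 3, against 36.4, 87.8 and 82.1 CPM in WT 1, WT 2 and WT 3. Het 3 came close to WT 1, and no Het library reached a WT library. The means were 26.2 ± 11.9 CPM in Het and 68.8 ± 28.2 CPM in WT (SD, n = 3 each), 2.61-fold lower (log2 fold change -1.38, SE 0.42, edgeR adjusted p 0.673, DESeq2 adjusted p 0.455). Sult3a2, at far lower levels, had 0.165, 0.553 and 0.443 CPM in Het, against 0.868, 2.7 and 1.79 CPM in WT. It was 4.47-fold lower (log2 fold change -2.16, SE 0.51), with an edgeR adjusted p of 0.594 and a DESeq2 adjusted p of 0.00702.

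Here WT 1 was the lowest WT library, unlike in the Sult2a block, and without it the log2 fold changes were -1.69 for Sult3a1 and -2.49 for Sult3a2. Over all fits without 1 library they ranged from -1.69 to -1.06 and from -2.49 to -1.72. Only 6.2% and 7.7% of their 50-base stretches are shared, mainly between the 2 genes.

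Among the Sult1 enzymes, Sult1d1, a catecholamine sulfotransferase, had 79.4, 106 and 84.4 CPM in Het 1, Het 2 and Het 3, against 196, 126 and 125 CPM in WT 1, WT 2 and WT 3. Every Het library lay below every WT library. It was 1.66-fold lower (log2 fold change -0.73, SE 0.20), with an edgeR adjusted p of 0.648 and a DESeq2 adjusted p of 0.0707, and -0.48 on the log2 scale without WT 1. Sult1b1, which acts on thyroid hormones, had 24.5, 33.2 and 21.7 CPM in Het, against 36.6, 33.4 and 32.5 CPM in WT, a log2 fold change of -0.37 (SE 0.16) with 1 Het library inside the WT range, -0.56 without Het 2 and -0.24 without Het 3.

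Sult1a1, the main phenol sulfotransferase and the most abundant Sult1 gene, overlapped between the genotypes with 497, 437 and 317 CPM in Het, against 587, 363 and 411 CPM in WT. Its log2 fold change of -0.12 (SE 0.22) became 0.11 without WT 1. Sult1c2 and Sult5a1 had log2 fold changes of -0.017 (SE 0.20) and 0.067 (SE 0.57). The oestrogen sulfotransferase Sult1e1 was not tested, with 1, 11 and 4 counts in Het and 49, 8 and 2 counts in WT. Sult2b1 and Sult4a1 had at most 3 counts in any library.

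Glutathione transferases were the most abundant of the families. Summed over the 25 genes they reached 7293, 6989 and 6717 CPM in Het 1, Het 2 and Het 3, against 8399, 6887 and 7605 CPM in WT 1, WT 2 and WT 3. Het 1 and Het 2 lay inside the WT range and Het 3 just below it. Over the 21 tested members the median log2 fold change was -0.16, with 16 lower and 5 higher, and 15 lay within 0.3 of 0. Without WT 1 that median was 0.0091.

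The most abundant members were flat or slightly lower. Mgst1, a membrane-bound enzyme of the ER and the outer mitochondrial membrane, averaged 2437 ± 48.8 CPM in Het and 2479.9 ± 156 CPM in WT (SD, n = 3 each) (log2 fold change -0.025, SE 0.12). Gsta3, an alpha-class enzyme that detoxifies aflatoxin epoxide in mice, had 2032, 1791 and 1723 CPM in Het, against 2411, 1988 and 2236 CPM in WT, a log2 fold change of -0.26 (SE 0.13) with an edgeR adjusted p of 0.712. The single highest value was WT 1, and 1 Het library lay above the lowest WT library. Gstz1, the maleylacetoacetate isomerase of tyrosine breakdown, averaged 872 ± 80 CPM in Het and 897 ± 72.4 CPM in WT (SD, n = 3 each).

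Mu-class genes, which act on epoxides and lie in a cluster on chromosome 3, all had negative log2 fold changes, 7 of 7, with a median of -0.23. Without WT 1 the values were 0.0091 for Gstm2, 0.13 for Gstm4 and 0.0027 for Gstm7, but -0.16 for Gstm5 and -0.14 for Gstm6. The direction common to all 7 thus rested on WT 1. Gstm1 had 712, 767 and 846 CPM in Het, against 1195, 723 and 801 CPM in WT, and Gstm3 had 9.9, 15.5 and 16.8 CPM in Het, against 56.5, 16 and 18.2 CPM in WT. In both, WT 1 was far above the rest while the other 5 libraries lay close together. Gstm3 was 2.15-fold lower with WT 1 in place (log2 fold change -1.10, SE 0.46, edgeR adjusted p 0.694), and -0.28 on the log2 scale without it. For Gstm1 the values were -0.23 (SE 0.19) and, without WT 1, 0.024. Gstm6 had 60.3, 57.6 and 69.8 CPM in Het, against 88.4, 59.1 and 79.1 CPM in WT, a log2 fold change of -0.27 (SE 0.16). Gstm3 shares 28.8% and Gstm1 18.9% of its 50-base stretches with other genes, mostly with each other and with pseudogenes.

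Theta-class genes, which act on small halogenated compounds and lie together on chromosome 10, had differences of both signs. Gstt3 had 44.3, 47.9 and 40.5 CPM in Het 1, Het 2 and Het 3, against 135, 61.2 and 54.2 CPM in WT 1, WT 2 and WT 3. All Het libraries were lower than all WT libraries, with WT 1 more than 2 times as high as the other WT libraries. It was 1.89-fold lower (log2 fold change -0.92, SE 0.32), with an edgeR adjusted p of 0.685 and a DESeq2 adjusted p of 0.175, and at -0.38 on the log2 scale without WT 1. Gstt2 had 79.4, 87.1 and 80.1 CPM in Het, against 57.4, 77.8 and 64.8 CPM in WT. It was the one member at an unadjusted p under 0.05 that was higher in Het, by 1.23-fold (log2 fold change 0.30, SE 0.13, edgeR adjusted p 0.694). Between them in the cluster, Gstt1 had -0.016 (SE 0.16).

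Among alpha-class genes Gsta2 had 3.92, 2.41 and 3.06 CPM in Het, against 12.6, 2.95 and 2.44 CPM in WT, so its log2 fold change of -0.94 (SE 0.58) rested on WT 1 and was 0.21 without it. Gsta4, which removes the lipid peroxidation product 4-hydroxynonenal, had -0.16 (SE 0.16). Of the pi class Gstp3 had 15.3, 20.3 and 17.1 CPM in Het, against 27.2, 17 and 22.9 CPM in WT (log2 fold change -0.35, SE 0.18) and Gstp1 63.3, 50.4 and 72 CPM in Het, against 51.2, 47 and 58.3 CPM in WT (0.25, SE 0.15). Neither separated the genotypes. Gstk1, Gsto1, Gstm2, Gstm4, Gstm5, Gstm7, Gstp2 and Mgst3 had log2 fold changes between -0.32 and 0.12. Gsta1, Gsto2, Mgst2 and Gstt4 were not tested, and Gstt4 had 1, 2 and 1 counts in Het and 0 in every WT library.

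**Figure D4:**
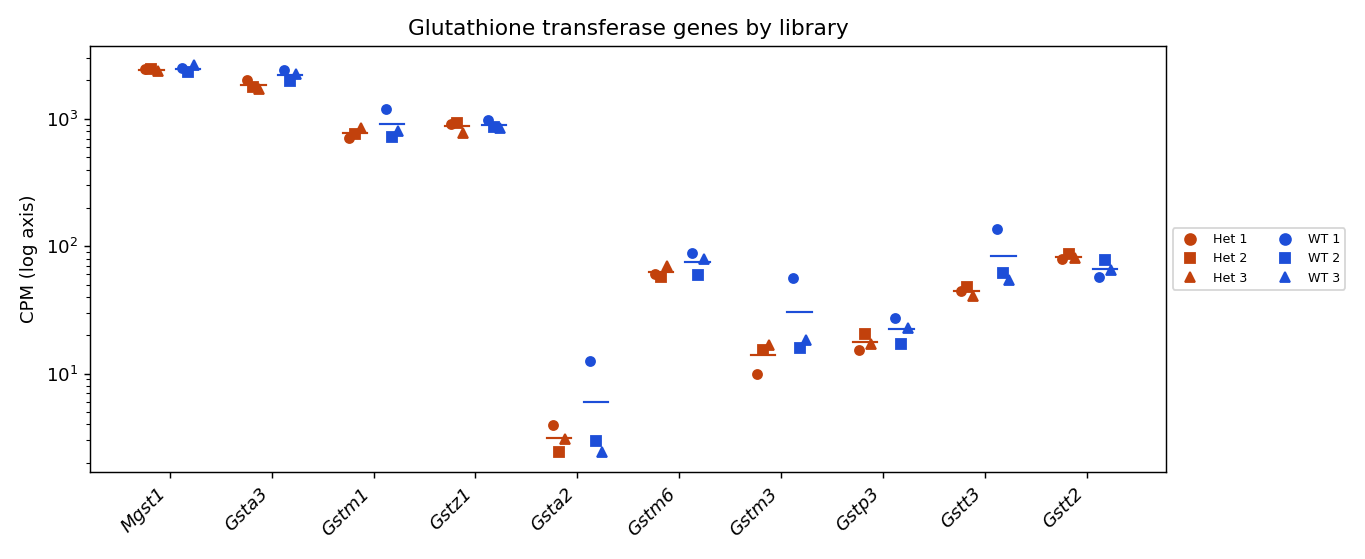
Level of 10 Gst and Mgst genes in each library in CPM on a log axis, with Het left of WT, 1 symbol per library and a line at the mean. WT 1 (blue circles) stands above all other libraries in Gsta2, Gstm3 and Gstt3, while Mgst1 and Gstz1 are level.

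Genes that feed or drain the conjugation reactions were read from lists outside the families. For sulfation, Papss2, the synthase that makes PAPS in liver, had 256, 357 and 246 CPM in Het 1, Het 2 and Het 3, against 503, 553 and 437 CPM in WT 1, WT 2 and WT 3. The genotypes did not overlap, and the level was 1.74-fold lower in Het (log2 fold change -0.80, SE 0.17, edgeR adjusted p 0.531, DESeq2 adjusted p 0.0049), with -0.98 to -0.70 over the fits without 1 library. It was 1 of 10 tested genes of PAPS supply with an unadjusted p under 0.05, beside 7.15% of all tested genes. The median over the 10 was -0.07. Impad1, which clears the by-product of PAPS, had 26.4, 34.1 and 34.7 CPM in Het, against 39.5, 40.8 and 33.6 CPM in WT (-0.26, SE 0.13). For glucuronidation, Ugdh, which oxidises UDP-glucose to UDP-glucuronate, had 93.3, 88.3 and 84.1 CPM in Het, against 148, 100.5 and 109 CPM in WT, a log2 fold change of -0.43 (SE 0.15) that was -0.24 without WT 1. Slc35b1, on the same list, is a nucleotide transporter of the ER membrane, and its place there does not mark it as a UDP-glucuronate carrier. Slc35b1 had 48.1, 41.4 and 45.9 CPM in Het, against 28.6, 33.1 and 32.6 CPM in WT, a log2 fold change of 0.52 (SE 0.11) with a DESeq2 adjusted p of 0.0263. Ugdh and Slc35b1 were the 2 genes at an unadjusted p under 0.05 among the 9 listed for UDP-glucuronate supply. Over all tested genes 7.15% stood at that p, and the median of the 9 was -0.03.

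Of 17 tested genes of glutathione supply and turnover 11 were higher in Het, beside 7193 of all 14606 tested genes. Higher at an unadjusted p under 0.05 were 4 of the 17, beside 3.39% of all tested genes, and 0 were lower at that p. The median was 0.10. Gss, glutathione synthetase, had 93.5, 67.9 and 85.9 CPM in Het, against 41.4, 54.4 and 65.2 CPM in WT, a log2 fold change of 0.62 (SE 0.18) with an edgeR adjusted p of 0.657. Hagh, the second glyoxalase, which releases glutathione, had 271, 261 and 271 CPM in Het, against 196, 217 and 228 CPM in WT, a log2 fold change of 0.32 (SE 0.099). In both every Het library lay above every WT library. The subunits of the rate-limiting ligase, Gclc and Gclm, named after their values were seen, had -0.096 (SE 0.15) and -0.011 (SE 0.099).

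Transporters of conjugates were lower in 10 of 14 cases, beside 7413 of all 14606 tested genes, and their median was -0.12. Lower at an unadjusted p under 0.05 were 2 of the 14, beside 3.77% of all tested genes. Abcc4, a pump for sulfated and glucuronidated bile acids and steroids, had 4.64, 5.32 and 4.5 CPM in Het, against 18.4, 8.3 and 6.61 CPM in WT, 2.31-fold lower (log2 fold change -1.21, SE 0.35, DESeq2 adjusted p 0.0494), and -0.63 on the log2 scale without WT 1. Abcg2, a pump for sulfate conjugates, had 46.4, 46.7 and 47.8 CPM in Het, against 54.5, 57.8 and 59.2 CPM in WT, a narrow but complete separation (-0.28, SE 0.086). Among 10 tested genes that remove conjugates or hydrolyse esters, the median was -0.07. Arsa, a lysosomal sulfatase, had 30.5, 29.3 and 35.9 CPM in Het, against 18.7, 19.5 and 22.3 CPM in WT. It was 1.58-fold higher (edgeR adjusted p 0.444, DESeq2 adjusted p 0.00402), and the carboxylesterase Ces1d was 1.27-fold lower.

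The 20 other phase II enzymes, such as methyl- and acetyltransferases, had a median of -0.14, with 4 lower and 0 higher at an unadjusted p under 0.05. Over all tested genes 3.77% were lower and 3.39% higher at that p. Inmt, an amine methyltransferase, had 997, 1054 and 908 CPM in Het, against 1235, 1223 and 1292 CPM in WT, and Nqo1, a quinone reductase, had 9.79, 11.3 and 10.5 CPM in Het, against 20.5, 13.6 and 12.9 CPM in WT. Both were lower in every Het library than in any WT library, with log2 fold changes of -0.34 (SE 0.11) and -0.57 (SE 0.19). Without WT 1 the value for Nqo1 was -0.33.

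**Figure D5:**
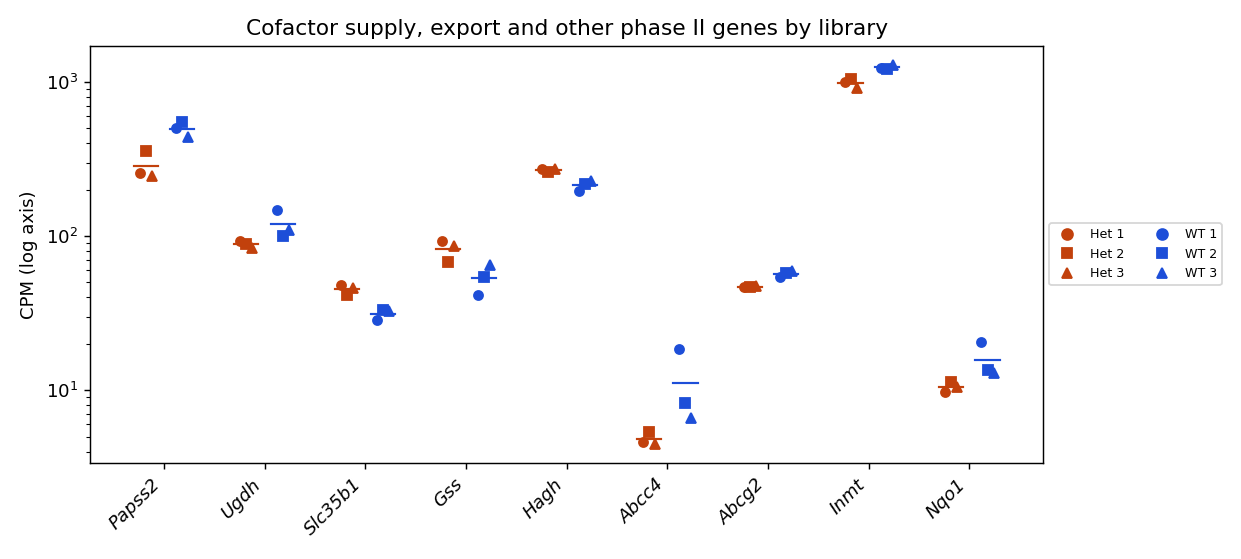
Level of 9 genes of cofactor supply, export and other phase II reactions in each library in CPM on a log axis, with Het left of WT, 1 symbol per library and a line at the mean. Papss2, Ugdh, Abcc4, Abcg2, Inmt and Nqo1 are lower and Slc35b1, Gss and Hagh higher in each Het library than in any WT library.

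Among the 24 genes for factors known to drive phase II expression 13 were higher and 11 lower in Het, and their median on the log2 scale was 0.05. Dbp was higher at an unadjusted p under 0.05, and its difference rested on Het 2 and Het 3 (log2 fold change 2.07, and -0.64 without both). The drug and stress receptors, named after their values were seen, differed little, with -0.16 for Ahr, 0.056 for Nr1i2 (PXR), 0.043 for Nr1i3 (CAR) and -0.12 for Nfe2l2 (NRF2). Of the 16 tested clock genes 10 were higher and 6 lower, and the smallest p belonged to Clock (log2 fold change -0.66) and Nr1d1 (1.54). Summed markers of Kupffer cells, leukocytes, cholangiocytes, sinusoidal endothelium, erythroid cells and exocrine pancreas overlapped between the genotypes. Stellate cell and fibroblast markers were lower in Het in 8 of 10 tested genes. Their sums overlapped narrowly, at 284 to 315 CPM in Het and 314 to 358 CPM in WT. Intestine and kidney markers did not overlap, at 121 to 171 CPM in Het and 104 to 118 CPM in WT. Only 3 of that list were tested, 1 higher and 2 lower in Het. Kupffer cell markers, 10 of 12 lower in Het and 1 of these at an unadjusted p under 0.05, summed to 467 to 853 CPM in Het and 633 to 971 CPM in WT. Leukocyte markers summed to 47.0 to 147 CPM in Het and 79.6 to 87.2 CPM in WT, and cholangiocyte markers to 45.1 to 54.9 CPM in Het and 47.8 to 61.9 CPM in WT. The pericentral hepatocyte markers, 7 of 10 higher in Het, with 1 higher and 1 lower at an unadjusted p under 0.05 and a median of 0.10, did not overlap and summed to 11909 to 13323 CPM in Het and 9275 to 11511 CPM in WT. The level of that list was 0.0062, 0.018 and 0.21 in Het 1, Het 2 and Het 3, against -0.022, -0.12 and -0.021 in WT 1, WT 2 and WT 3. The periportal markers overlapped, with sums of 5340 to 8031 CPM in Het and 5524 to 7253 CPM in WT. The part of the clock genes and of these cell types and zones in the phase II values was not tested.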

How the data were processed

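Strand-specific TruSeq libraries of polyadenylated liver RNA were sequenced, 3 per genotype, per the labels' protocols. The submitters' processing notes name the build mm10 and the tools STAR 2.5.3a, HTSeq 0.6.1p1, DESeq2 1.16.1, cutadapt 1.10 and bcl2fastq 2.17.1.14. No source used here states whether counting used strand, which annotation release it used or how it handled multiply mapped reads. The authors deposited raw read counts per Ensembl gene, which were used, and 12 normalized columns and a table of comparisons, which were not. The deposited table also gives a transcript length, which was not used for levels.

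Counts were filtered with edgeR's filterByExpr, scaled by TMM and tested with edgeR's quasi-likelihood test (edgeR 4.0.16, R 4.3.3, two-sided) on genotype alone. P-values were adjusted by Benjamini-Hochberg over 14606 genes, which held 99.955% of all counts. The coefficient of variation between samples was 18.5%. DESeq2 1.42.0 and limma-voom (limma 3.58.1) were alternatives. CPM are on effective library sizes, and per-library levels use log2 CPM with a prior count of 2. An exact permutation test of 3 against 3 libraries cannot go below 0.1. The fits were checked on simulated counts. There edgeR called 51% of 2-fold and 6% of 1.5-fold changes, with 6 unchanged genes called. DESeq2 called 64% of 2-fold and 22% of 1.5-fold changes, with 31 unchanged genes called. A gene that was not called can therefore still differ, and a DESeq2 call can be of an unchanged gene. All pairs of libraries within a genotype differed by more than sampling noise. Unshared exon lengths and 50-base stretches came from GENCODE M21 and promoters from RefSeq, both on GRCm38.

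The members and lists were chosen with earlier results of these data known. In each family the 6 members with the smallest p and the 4 with the highest CPM are named, with all that do not overlap at a mean of at least 1 CPM or pass DESeq2. In each of the 10 lists outside the families the 2 genes with the smallest p are named. One gene that this rule names is not reported here. Further members complete a family or cluster.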

Additional observations from a re-analysis of the deposited data

How the results depend on the processing

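In 14 other settings (limma-voom, DESeq2, scaling by upper quartile or RLE, testing every gene, requiring 1 CPM in 3 libraries, the replicate block, each library left out, and both Het 2 and Het 3 left out) all 15 members at an unadjusted p under 0.05 kept their direction wherever they were tested. Of these, 6 kept an unadjusted p under 0.05 in all 6 edgeR fits without 1 library, namely Ugt1a5, Sult1d1, Sult2a1, Sult2a3, Sult3a1 and Sult3a2. With limma-voom on all 6 libraries, however, the unadjusted p was 0.10 for Sult2a1 and 0.13 for Sult2a3. For Ugt1a5, Sult1d1, Sult3a1 and Sult3a2 the limma-voom unadjusted p was under 0.05. The count of called genes was 66 with DESeq2, 73 with no filter and 0 to 1 without 1 library (1 without Het 2), and the count of called members was 2 with DESeq2, 8 with no filter and 0 without 1 library. The Sult median was -0.73 under the 1 CPM filter, which left out Sult2a3 and Sult3a2, and -2.45 without Het 2 and Het 3. The Ugt median was -0.26 without Het 2 and Het 3 and ranged from -0.15 to -0.0077 without 1 library. The cause of the Ugt shift was not tested.

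The log2 fold change had another sign in at least 1 of the 6 fits without 1 library in 26 of the 53 tested members, of which 24 lay within 0.3 of 0 and 0 had an unadjusted p under 0.05. Examples are Ugt2b38 (-0.77 without Het 3), Ugt1a6a (0.053 without WT 2), Ugt1a10 (0.21), Mgst3 (0.057), Gstm4 (0.13) and Gstm2 (0.0091), the last 4 without WT 1. Among those with full ranges, the values without 1 library ran from -1.31 to 0.21 for Gsta2, -0.36 to 0.024 for Gstm1, -0.085 to 0.034 for Gstz1, -0.066 to 0.021 for Mgst1, -0.27 to 0.11 for Sult1a1, -0.22 to 0.36 for Sult2a7, -0.055 to 0.13 for Sult2a8, -0.095 to 0.042 for Ugt2b36, -0.066 to 0.20 for Ugt2b5 and -0.066 to 0.019 for Ugt3a2. Without Het 2 and Het 3 they were 0.020 for Gstz1, 0.0025 for Mgst1, 0.14 for Sult1a1, -0.013 for Ugt2b5 and -0.64 for Dbp. Ugt2b36 was at 0.00098 with upper-quartile scaling and 0.0032 with no filter. With the replicate block 0 genes and 0 members were called. No pairing by number was evident, since same-numbered samples correlated at -0.07, 0.12 and 0.15 in their deviations from the group means. Differently numbered samples correlated at -0.30 to 0.18. Such weak correlations cannot exclude a pairing. Depth limits only the low members, since the 9 untested ones averaged at most 0.42 CPM in either genotype.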
